A study of Mus musculus with 5 samples.

Results

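Complex I, NADH:ubiquinone oxidoreductase, was read here through every gene of the Ndufa, Ndufb, Ndufc, Ndufs, Ndufv and Ndufaf symbols that had a probe set of its own on the array. These were 44 genes of the 18193 with such a probe set, covered by 88 of the 45037 probe sets tested. Of the 44, 22 had 1 probe set and 22 had several, and each gene was read by the probe set with the highest mean over the 5 arrays. Ndufs6 and Ndufa11 were read only by probe sets that also match another gene, so they are not among the 44.

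The study asked how loss of Atxn1L, a paralog of the ataxin-1 gene, alters hematopoietic stem cells (HSCs). RNA of pooled HSCs from WT mice (3 arrays) and from Atxn1L null mice (2 arrays) was hybridised to Affymetrix mouse expression arrays. Mice of both genotypes were 6 to 8 weeks old and of strain C57Bl/6, the null mice carried a knock-out allele of Atxn1L, and no other agent or allele is named for either group. The HSCs were lineage-negative bone marrow cells with c-Kit, Sca-1 and CD150 on their surface that excluded Hoechst dye. The number of mice in each pool is not stated, so the p-values below describe the spread between pools only. Few sorted cells give little RNA, and it was amplified before labelling with a method that starts at the 3' end of transcripts.

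Complex I is the entry point of the mitochondrial respiratory chain. It takes electrons from NADH in its matrix arm, passes them along iron-sulfur clusters to ubiquinone, and uses the energy to pump protons through its membrane arm. Its subunits are encoded in the nucleus and in mitochondrial DNA, and dedicated assembly factors put the modules together. HSCs in the marrow are known for a low rate of respiration and a reliance on glycolysis, and differentiation goes with a greater use of the respiratory chain.

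Promoters of respiratory chain genes are known for sites of the ETS-family factor GABP, of NRF1 and of YY1. Of the 44 genes, 39 matched the RefSeq promoter table (build GRCm38.p6, windows of 300 bases from 250 before to 50 after the transcript start), and Ndufa2, Ndufa4l2, Ndufaf6, Ndufb9 and Ndufs1 did not. The 150 bases upstream of the start are shown for 3 genes because they hold the ETS core there and are described below. They were chosen after their values were seen, as a called gene, a gene called on a dimmer probe set only and a gene that was not called. They are Ndufb7 (chr8:83566608-83566757, plus strand), Ndufa12 (chr10:94198885-94199034, plus strand) and Ndufaf1 (chr2:119662835-119662984, minus strand). Each is written 5′ to 3′ on the strand of the gene, and capitals mark the ETS core CGGAAG or its reverse complement.
Ndufb7: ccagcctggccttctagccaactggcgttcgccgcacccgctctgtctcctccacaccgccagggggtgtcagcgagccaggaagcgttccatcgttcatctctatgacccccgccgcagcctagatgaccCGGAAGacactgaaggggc
Ndufa12: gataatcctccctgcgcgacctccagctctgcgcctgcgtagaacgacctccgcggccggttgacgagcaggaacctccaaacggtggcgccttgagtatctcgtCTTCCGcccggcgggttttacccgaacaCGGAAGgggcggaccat
Ndufaf1: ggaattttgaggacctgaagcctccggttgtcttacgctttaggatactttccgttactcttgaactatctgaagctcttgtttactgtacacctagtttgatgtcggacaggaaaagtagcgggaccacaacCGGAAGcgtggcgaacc
The core begins 19 bases before the start of Ndufb7 and 17 before that of Ndufaf1. Ndufa12 holds it at 17 bases before the start and, on the other strand, at 45.

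On either strand, the ETS core CGGAAG was present in 15 of the 39 complex I promoters (38.5%), in 60.4% of 48 promoters of complexes III to V, in 23.5% of 17491 protein-coding promoters and in 18.8% of all 27025. The longer form CCGGAAG, which contains the core, was in 6 of the 39 (15.4%), in 39.6% of the promoters of complexes III to V, in 12.9% of the protein-coding ones and in 9.93% of all. The YY1 motif AAGATGGC was in 7 (17.9%), namely Ndufa3, Ndufa9, Ndufaf8, Ndufb8, Ndufc1, Ndufs4 and Ndufs7. It was in 14.6% of the promoters of complexes III to V, in 3.57% of the protein-coding ones and in 3.19% of all. The 39 complex I windows are also rich in G and C, with a median of 59.3%. It was 59.0% over complexes III to V, 56.3% over protein-coding and 52.8% over all promoters. The shares were not matched on that content.

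For NRF1, the core GCGCATGC was in 4 of the 39 (10.3%). It was in 14.6% of the promoters of complexes III to V, in 3.93% of the protein-coding ones and in 3.05% of all. The shorter TGCGCA, which can share bases with it, was in 10 (25.6%), against 16.7%, 11.0% and 8.79% in the same order. The GC box GGGCGG was in 21 (53.8%), against 52.1%, 49.2% and 38.2% in that order. CCAAT was in 13 (33.3%), against 47.9%, 42.3% and 41.1%. The 15 genes with the ETS core include genes whose null values lay above all WT values (Ndufb5, Ndufb7, Ndufs8), below them (Ndufs3, Ndufaf1) and overlapping with them (Ndufa9, Ndufb6). A match describes the letters of the window, and binding was not measured.

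Of the 3 probe sets of Atxn1l itself, 2 read lower in the null than in the WT arrays, and the last lay at the floor of the scale in all 5. The brightest gave 6.80, 6.69 and 4.98 in the WT and 3.08 and 3.99 in the null arrays, with no overlap. HSC markers were present: Procr and Hoxa9 had means above 13 on the log2 scale, while Slamf1, which encodes the sorted marker CD150, lay near the floor of the scale at means of 3.92 and 3.89. Granulocyte genes were as bright: Camp had means of 13.4 in the WT and 13.3 in the null arrays, and S100a8 of 13.4 and 13.7. Of the 8 granulocyte and monocyte markers, 7 had a mean of at least 5 in a genotype. None of 8 measured HSC markers and of 30 markers of other blood and stromal cells was called. The HSC markers were lower in null HSCs for 7 of 8, with a median difference of -0.21 and a summed log2 level of 14.75 to 14.89 in the WT and 14.54 and 14.63 in the null arrays. The homeobox genes Hoxa9 (-0.29, limma adjusted p = 0.570) and Meis1 (-0.46, limma adjusted p = 0.767) read below all WT arrays in both null arrays. For Gapdh, the excess of the 3' over the 5' control probe set was 5.89 to 6.02 in the WT and 7.33 and 7.21 in the null arrays, and for beta-actin it was 6.40 to 6.71 and 7.43 and 7.28. Thus both controls were read with a steeper loss towards the 5' end in the null pools, and the part of this, and of the HSC marker levels, in the values below was not tested. In pools of sorted cells, fewer cells of a type and less RNA per cell cannot be told apart.

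Most complex I genes had nearly the same level in WT and Atxn1L null HSCs, with a small shift upwards in the null arrays that came mainly from one of the 2 null pools. A gene was called higher or lower at a limma p of at most 0.05 together with a fold of at least 1.5. By this criterion 2 of the 44 genes (4.55%), Ndufb7 and Ndufb9, rose in null HSCs, against 1.57% of all genes, and 0 fell, against 1.43% of all genes. Of the 7236 genes with a mean of 5 or more in a genotype, 3.50% were called higher and 3.44% lower, beside 2 and 0 of the 40 complex I genes among them. When a gene counted through any of its probe sets, 3 rose (against 2.30% of all genes), with Ndufa12 added, and 0 fell (against 2.21%). None of the 44 had a limma adjusted p under 0.05, and the lowest was 0.476 for Ndufb9. With an unadjusted limma p of at most 0.05 alone there were 6, of which Ndufa5, Ndufaf2, Ndufb7, Ndufb9 and Ndufv1 were on the higher and Ndufs3 on the lower side, while 7.44% of all genes reached that p. With 3 pools against 2, an exact permutation test of a gene could not go below 0.1, so the number of arrays limits every value.

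The difference, null minus WT, was positive for 33 of the 44 genes (75.0%). Its median over the 44 was 0.13 on the log2 scale, with quartiles of 0.00 and 0.33 and a range of -0.55 to 1.23, beside a median of -0.00186 and 45.4% positive over all genes. For 26 genes the difference was under 0.3 in size. Many genes on the array are dim, and a dim gene hardly moves in these values. Where the mean reached at least 5 in a genotype, 40 complex I genes had a median of 0.15 and 7236 genes overall a median of 0.02, with 75.0% and 52.7% positive. The 4 complex I genes below that mean were Ndufa4l2, Ndufb4, Ndufaf6 and Ndufaf7.

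**Figure D1:**
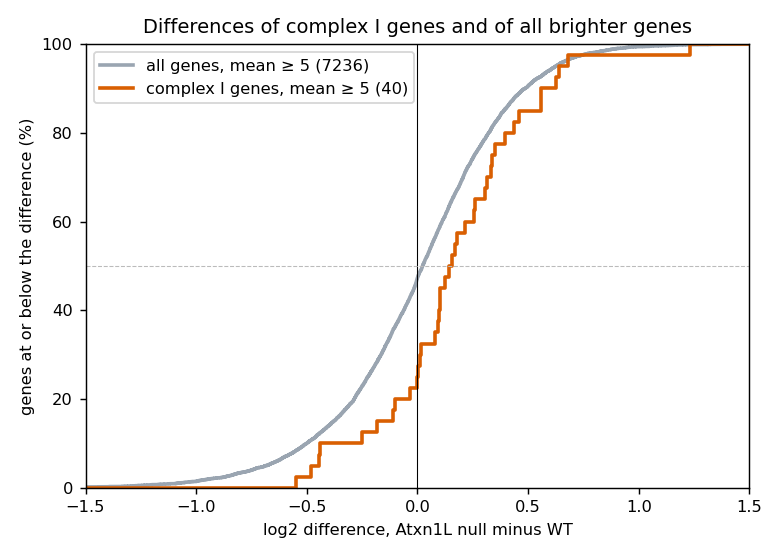
Cumulative share of genes (vertical axis, percent) at or below a log2 difference of Atxn1L null minus WT (horizontal axis) for 40 complex I genes and 7236 genes whose mean was 5 or more in a genotype. The complex I curve lies to the right of the other over most of the range, with medians of 0.15 and 0.02, and the curves meet at the largest differences apart from a last step at 1.23, which is Ndufa4.

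All null values lay above all WT values for 10 of the 44 genes (22.7%), namely Ndufa4, Ndufa5, Ndufaf2, Ndufb5, Ndufb7, Ndufb9, Ndufb10, Ndufs8, Ndufv1 and Ndufv2, against 9.14% of all genes. They lay below all WT values for 3 (6.82%), Ndufa1, Ndufaf1 and Ndufs3, against 8.35% of all genes. Among the 7236 brighter genes these shares were 18.4% and 15.4%.

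**Figure D2:**
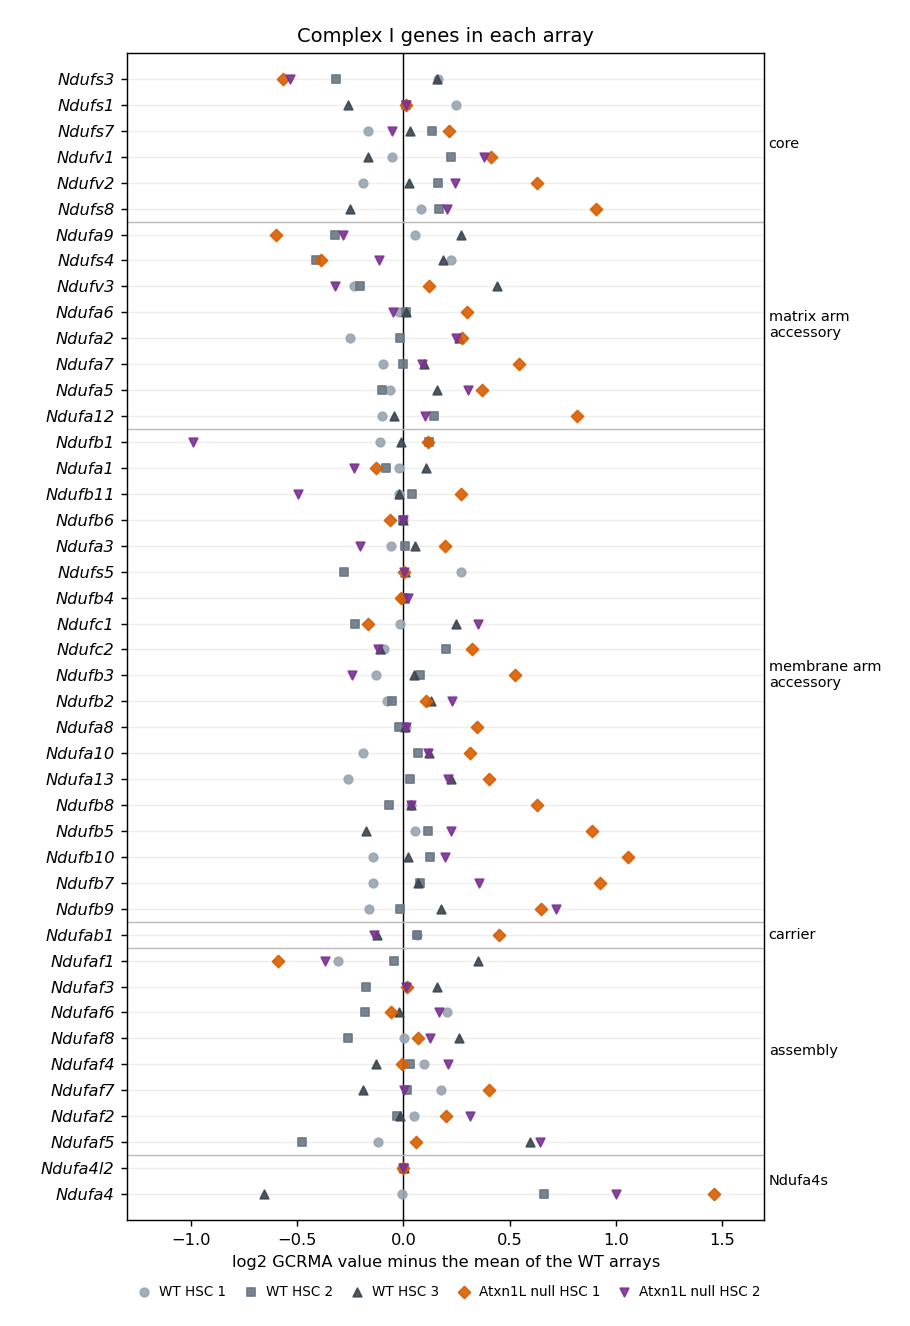
Log2 GCRMA value of each of the 44 complex I genes minus its mean over the WT arrays (horizontal axis), a symbol per array, with genes grouped by role (vertical axis) and ordered within a role by their difference. The orange diamonds of the first null array lie farthest to the right for many subunits, up to 1.46 for Ndufa4, while the purple triangles of the second null array stay closer to the WT symbols.

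Among the core subunits, which carry the electron path and are shared with the bacterial enzyme, 6 nuclear-encoded genes were measured and 0 were called. Their median difference was 0.24, and 5 of the 6 were positive. The NADH-binding flavoprotein subunit Ndufv1 read 9.87, 10.15 and 9.76 in the WT arrays and 10.34 and 10.30 in the null arrays. Both null values exceeded the WT values, by a mean of 0.40 (standard error 0.13, 1.32-fold, limma adjusted p = 0.862). Its partner Ndufv2, which holds an iron-sulfur cluster, read 10.88, 11.23 and 11.10 in WT and 11.70 and 11.31 in null HSCs, a difference of 0.44 (standard error 0.18). The second null array lay only just above the highest WT array there.

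Ndufs8, which carries iron-sulfur clusters close to the quinone site, read 10.75, 10.83 and 10.41 in WT and 11.57 and 10.87 in null HSCs. The difference of 0.56 (standard error 0.28, limma adjusted p = 1.00) rested on the first null array, since the second was within 0.04 of the highest WT value. Ndufs7, which holds the last cluster before ubiquinone, differed by 0.08 and Ndufs1, the largest core subunit, by 0.01, both with overlapping groups.

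Ndufs3, a core subunit of the module that meets ubiquinone, was the exception in direction. It read 10.49, 10.01 and 10.48 in WT and 9.76 and 9.80 in null HSCs. Both null arrays lay below the lowest WT array, with a difference of -0.55 (standard error 0.18, 1.46-fold, limma adjusted p = 0.847) that missed the required fold. It passed the criterion when the second WT array was left out (difference -0.71), and with the other arrays left out in turn it did not.

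The accessory subunits of the matrix arm were 8 genes, of which 0 were called on their brightest probe set, with a median difference of 0.19 and 5 positive. Ndufa12, the subunit that takes the place of the assembly factor Ndufaf2 in the finished complex, read 11.06, 11.30 and 11.11 in WT and 11.97 and 11.26 in null HSCs, a difference of 0.46 with overlapping groups (limma adjusted p = 1.00). A dimmer probe set of Ndufa12 was called: it read 8.39, 8.78 and 8.57 in WT and 9.48 and 8.97 in null HSCs, a rise of 0.65 (standard error 0.21, 1.57-fold, limma adjusted p = 0.842). On both probe sets the first null array was the highest of the 5.

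Ndufa5, an accessory subunit next to the quinone module, read 11.18, 11.14 and 11.40 in WT and 11.61 and 11.54 in null HSCs. The groups did not overlap and differed by 0.34 (standard error 0.10, 1.26-fold, limma adjusted p = 0.752), short of the required fold, and its other probe set gave -0.13. Of the rest, Ndufa7 differed by 0.32, Ndufa2 by 0.26 and Ndufa6 by 0.13 in one direction, and Ndufa9, which helps join the arms, by -0.44, Ndufs4 by -0.25 and Ndufv3 by -0.10 in the other. All 6 had overlapping groups.

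Both genes called on their brightest probe set encode accessory subunits of the membrane arm, where 2 of 19 genes rose, 14 were positive and the median difference was 0.14. Ndufb9, a subunit of the LYR family that holds an acyl carrier protein, read 11.58, 11.73 and 11.92 in WT and 12.39 and 12.46 in null HSCs. The null arrays lay within 0.07 of each other and above the highest WT array, a rise of 0.68 (standard error 0.12, 1.60-fold, limma adjusted p = 0.476). A dimmer probe set of Ndufb9 read 7.86, 8.17 and 8.10 in WT and 8.72 and 8.53 in null HSCs, a difference of 0.58 (1.49-fold) just short of the fold. Its last probe set lay near the floor, at 3.11 to 3.25. The call of Ndufb9 held with each array left out in turn, with differences of 0.60 to 0.77.

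Ndufb7, a subunit on the intermembrane-space face, read 11.33, 11.55 and 11.54 in WT and 12.40 and 11.83 in null HSCs. Both null arrays were above all WT arrays, a rise of 0.64 (standard error 0.21, 1.56-fold, limma adjusted p = 0.829). Its second probe set rose as well, by 0.70 (standard error 0.21, 1.63-fold, limma adjusted p = 0.777), from 9.54, 9.87 and 9.62 to 10.64 and 10.12. The call on the brightest probe set ended without any 1 of the WT arrays (0.57, 0.68 and 0.67) or without the first null array (0.36).

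Ndufb10, another subunit of the intermembrane-space face, read 9.48, 9.74 and 9.64 in WT and 10.68 and 9.82 in null HSCs. Its difference of 0.63 (standard error 0.30, 1.54-fold, limma adjusted p = 1.00) reached the fold but not the p, with null arrays 0.86 apart. Ndufb5, of the distal membrane arm, read 10.09, 10.15 and 9.86 in WT and 10.92 and 10.25 in null HSCs, a difference of 0.56 (standard error 0.24), and its second probe set gave 0.70. In both genes the first null array stood well above the others and the second just above the WT range.

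Of the other 15 genes of the membrane arm, Ndufb8 (0.33), Ndufa13 (0.31), Ndufa10 (0.21), Ndufa8 (0.18), Ndufb2 (0.17) and Ndufb3 (0.14) had the larger positive differences, all with overlapping groups. Ndufb1 read 6.65, 6.87 and 6.74 in WT and 6.87 and 5.76 in null HSCs, so that its difference of -0.44 came from the second null array alone. Ndufa1, a small subunit encoded on the X chromosome, read 14.02, 13.96 and 14.15 in WT and 13.91 and 13.81 in null HSCs, a difference of -0.18 (standard error 0.07). Ndufb11 (-0.11), Ndufb6 (-0.03), Ndufa3 (-0.00281), Ndufs5 (0.00226), Ndufb4 (0.00327), Ndufc1 (0.09) and Ndufc2 (0.10) were close to 0, and the probe set of Ndufb4 was dim at 2.16 in both genotypes.

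Ndufab1, the mitochondrial acyl carrier protein, which serves complex I as well as mitochondrial fatty acid synthesis, had a difference of 0.16 on its brightest probe set, with 8.32, 8.32 and 8.13 in WT and 8.71 and 8.12 in null HSCs. Its probe sets disagreed: another read 6.68, 6.22 and 6.46 in WT and 4.58 and 6.20 in null HSCs, a difference of -1.07 (standard error 0.56) that rested on the first null array.

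**Figure D3:**
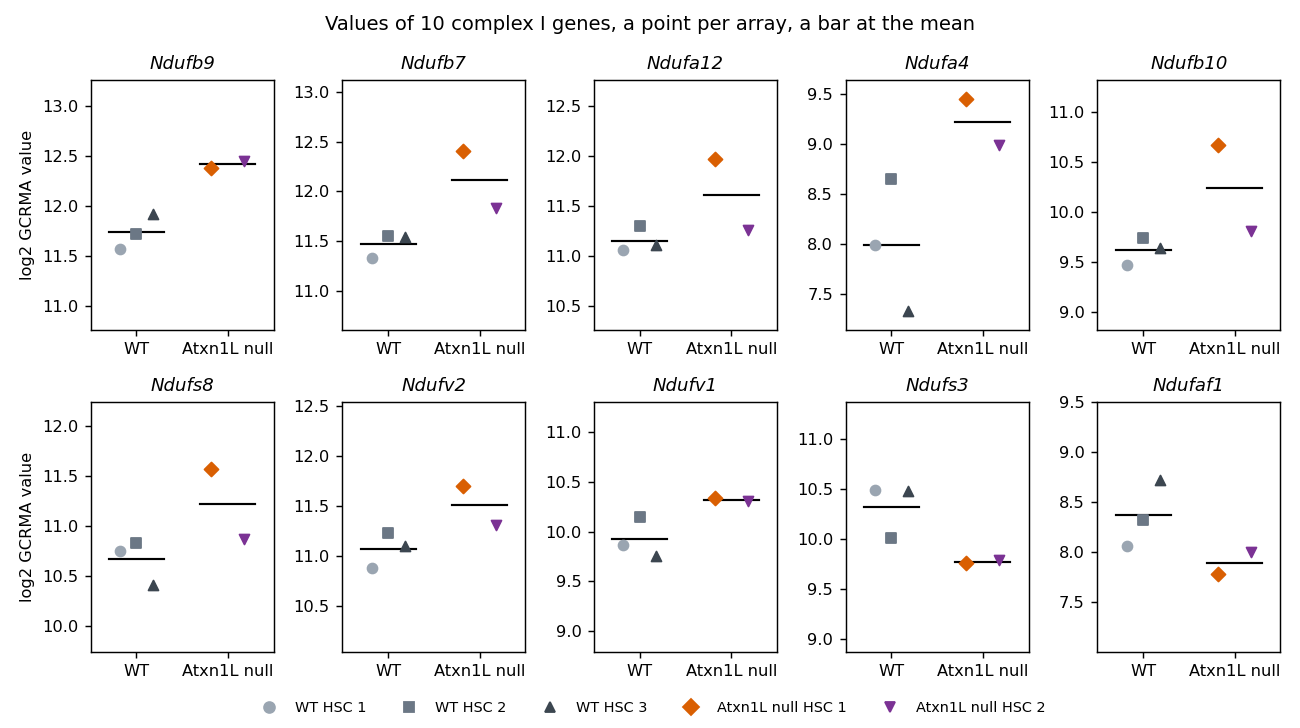
Log2 GCRMA values (vertical axis, each panel spanning the same number of log2 units) of 10 complex I genes in WT and Atxn1L null arrays, with 1 symbol for every array and horizontal lines at the genotype means. The null arrays lie close together for Ndufb9, Ndufv1 and Ndufs3 and far apart for Ndufa12, Ndufb10 and Ndufs8, where the first null array is the highest of the 5.

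Of the 8 assembly factors with Ndufaf symbols 0 were called, 7 were positive, and the median difference was 0.10. Ndufaf2, which holds the place of Ndufa12 during assembly, read 8.55, 8.47 and 8.48 in WT and 8.70 and 8.82 in null HSCs. The groups did not overlap, and the difference of 0.26 (standard error 0.05, 1.19-fold, limma adjusted p = 0.518) was small. Ndufaf1, which helps build the membrane arm, read 8.06, 8.32 and 8.72 in WT and 7.78 and 8.00 in null HSCs, a difference of -0.48 (standard error 0.23, 1.39-fold, limma adjusted p = 1.00) with both null arrays below the WT range.

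Ndufaf4, which acts in the assembly of the quinone module, differed by 0.10 on its brightest probe set. A dimmer one read 6.16, 6.34 and 6.00 in WT and 6.67 and 6.76 in null HSCs, a difference of 0.55 (standard error 0.12, 1.46-fold, limma adjusted p = 0.584) without overlap and short of the fold. Ndufaf5 (0.35), Ndufaf7 (0.20), Ndufaf8 (0.10), Ndufaf6 (0.06) and Ndufaf3 (0.01) had overlapping groups.

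Ndufa4 was first assigned to complex I and is now placed in complex IV. It had the largest difference of the 44 genes, with 7.99, 8.66 and 7.34 in WT and 9.46 and 8.99 in null HSCs. Both null arrays lay above all WT arrays, and the difference of 1.23 (standard error 0.46, 2.35-fold, limma adjusted p = 0.951) was not called, with WT arrays spread over 1.32 log2 units. With dim probe sets left out of the fit, or with a variance trend and robust estimation together, the same difference was called. Its paralogue Ndufa4l2, known for its induction by low oxygen, stayed at the floor of the scale at 1.63 to 1.64.

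The 2 null arrays did not carry the shift equally. Over the 44 genes the median distance from the WT mean was 0.24 in the first null array and 0.03 in the second, and -0.02, 0.00 and 0.03 in the WT arrays. The first null array was above the second for 28 genes and below it for 14. Among the 40 brighter complex I genes it was above for 27 (67.5%), beside 50.3% of all brighter genes. The first null array exceeded every WT array for 25 of the 44 genes and the second for 15. Among the 40 brighter complex I genes these shares were 60.0% and 35.0%, beside 35.9% and 30.2% of all brighter genes. The first null array lay below every WT array for 6 of the 44 genes and the second for 11. Among the 40 brighter complex I genes these counts were 5 and 11, beside 2214 and 1981 of the 7236 brighter genes.

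By role, the first null array was above the second for 14 of 19 membrane arm genes and 6 of 8 matrix arm genes, but for 2 of 8 Ndufaf genes. The summed log2 level of granulocyte and monocyte markers was 15.55 in the first and 14.73 in the second null array. All 8 of those markers were higher in the first null array than in the second. In the WT arrays the sum was 14.58, 14.89 and 15.50. Of the 8 markers, 4 exceeded every WT array in the first null array and 1 in the second. Below every WT array were 0 in the first null array and 2 in the second. B cell sums were 8.98 and 8.64 in the null arrays and 8.57, 7.86 and 9.20 in the WT arrays. The megakaryocyte and platelet sum was 11.66 and 10.86 in the null arrays and 11.10 to 11.55 in the WT arrays. That of T and NK cells was 8.03 and 7.09 against 6.96 to 7.76. The T and NK cell sum rested on Nkg7, as the other markers of that list lay near the floor, from 1.87 to 2.83. The stroma and endothelium sum was highest in the second null array instead. It was 7.88 and 9.02 in the null arrays and 7.19 to 8.15 in the WT arrays. This sum rested on Pdgfrb, which read 8.00, 6.90 and 7.62 in WT and 7.71 and 8.94 in null HSCs. The other stroma and endothelium markers lay near the floor, from 2.31 to 3.46. Erythroid markers lay near the floor in every array, from 1.89 to 2.69. The part of these differences between pools in the complex I values was not tested.

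Probe sets of the same gene agreed in sign for 13 of the 21 complex I genes that had more than 1 with a mean of at least 5. For 11 of these every such probe set was positive, among them Ndufb5, Ndufb7, Ndufb9, Ndufa12, Ndufv2 and Ndufs8, whose 5 brighter probe sets ran from 0.22 to 0.56. For Ndufb11 and Ndufb6 every one was negative. The signs differed for Ndufa3, Ndufa5, Ndufab1, Ndufb2, Ndufb8, Ndufs4, Ndufs7 and Ndufv1, and for Ndufv1 the probe sets gave 0.40, 0.40 and -0.20.

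**Figure D4:**
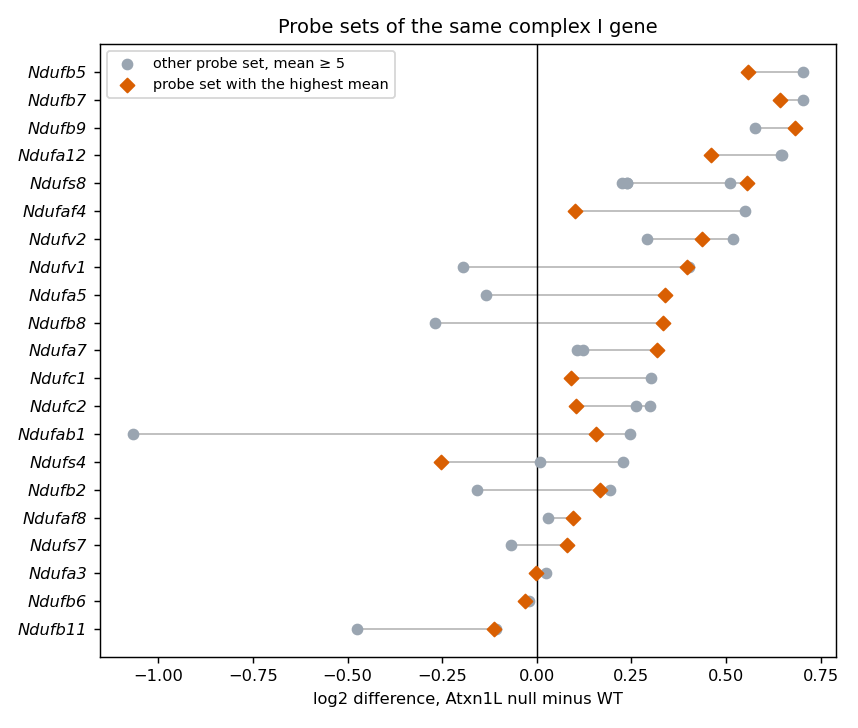
Log2 difference of Atxn1L null minus WT (horizontal axis) for each probe set with a mean of at least 5 in a genotype, for the 21 complex I genes (vertical axis) with more than 1. The diamonds are the probe sets with the highest mean, and the spread is widest for Ndufab1, from -1.07 to 0.25, and narrow for Ndufb7, from 0.64 to 0.70.

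The other parts of the complex and of the chain were read from lists of their genes. Of 12 assembly factors without an Ndufaf symbol 0 were called, 4 were positive and the median difference was -0.08. The lowest were Tmem186 (-0.50), a dim probe set, and Lyrm2 (-0.30). The mitochondrially encoded subunit ND5 read 9.71, 10.96 and 10.72 in WT and 9.97 and 10.29 in null HSCs, a difference of -0.33 with overlapping groups.

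Complexes III and IV showed smaller medians than complex I (0.13), whereas the medians of complexes II and V were near it. Complex II, which passes electrons from succinate, had 8 genes with 0 called, 4 positive and a median of 0.12. Its quartiles were -0.12 and 0.26. In the first null array its median distance from the WT mean was -0.0053, beside 0.24 for complex I. The widest differences of complex II were -1.14 for Sdhc, a membrane anchor, and 0.91 for Sdhaf4, an assembly factor. Complex III had 15 genes with 0 called, 7 positive and a median of -0.00974, with Ttc19 at -0.47 and Uqcr11 at 0.42. Complex IV had 21 genes with 0 called, 11 positive and a median of 0.00702, with Cox11 at -0.44 and Cox7a2 at 0.34.

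Complex V, the ATP synthase, had 19 genes with 2 called higher, 13 positive and a median of 0.16. Its subunit gene Atp5pb read 9.89, 10.30 and 10.23 in WT and 11.29 and 10.69 in null HSCs, a rise of 0.85 (standard error 0.25, 1.80-fold, limma adjusted p = 0.768). Atp5k read 10.34, 10.69 and 10.51 in WT and 11.32 and 10.94 in null HSCs, a rise of 0.62 (standard error 0.17, 1.54-fold, limma adjusted p = 0.735). As in the called complex I gene Ndufb7, the first null array was the higher one. With 1 array left out in turn, Atp5pb was called only without the second null array and Atp5k only without that array or the second WT array.

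**Figure D5:**
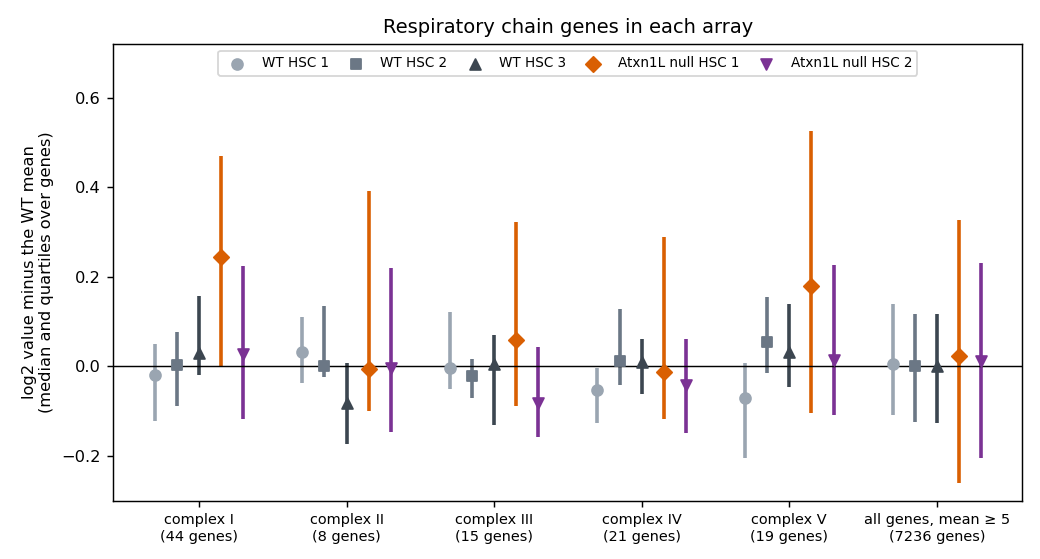
Log2 value minus the mean of the WT arrays (vertical axis) for each array, as the median (symbol) and quartiles (line) over the genes of each respiratory complex and over 7236 genes whose mean was 5 or more in a genotype. The first null array has its highest medians in complex I (0.24) and complex V (0.18), and the second null array has medians between -0.08 and 0.03.

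Of 13 regulators of respiratory chain genes 9 were positive, with a median of 0.13, and 1 was called. Esrra, the nuclear receptor ERRα that drives respiratory chain genes with PGC-1 coactivators, fell by 0.82 (standard error 0.20, 1.76-fold, limma adjusted p = 0.648), from 8.20, 7.71 and 8.00 in WT to 6.98 and 7.33 in null HSCs. Its call ended without the third WT array or the first null array. Among factors whose motifs were searched above, Yy1 differed by 0.50 and Gabpb1 by 0.39 without being called, Gabpa by 0.14 and Nrf1 by 0.13.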

How the data were processed

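The authors processed the Affymetrix intensities with GCRMA (background correction by probe sequence, quantile normalization and summarization), and the deposited table holds log2 values for 45101 probe sets. The log base is unstated and was inferred from the range. Array medians ran from 3.03 to 3.07.

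The complex I genes and all lists were chosen with earlier results of these data known. After 64 control probe sets had been left out, a mean per genotype was fitted to 45037 probe sets with lmFit and eBayes at their defaults (limma 3.58.1, R 4.3.3; 3 residual and 0.771 prior degrees of freedom), with Benjamini-Hochberg adjustment over all of them. Platform annotation gave 34945 probe sets 1 gene, 932 several and 9160 none. Named are complex I genes called on any probe set, those without overlap that differ by at least 0.3, all core subunits, Ndufa4, Ndufa4l2 and Ndufab1, the called genes of each pathway list or else its 2 widest differences, and, after their values were seen, some others: Ndufaf2, Ndufaf4, Ndufa1, Ndufb1, the remaining genes of each role, and Yy1, Gabpb1, Gabpa and Nrf1. A list's summed level is the log2 of the sum of its unlogged values. Calls were tested on simulated data with independent noise in each probe set and array, so differences between whole pools were not part of it. The alternatives were other variance models and weights, normalizations, probe set rules, criteria, a replicate block, and the removal of each array in turn. The call criterion is that of the study's text.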

Additional observations from a re-analysis of the deposited data

How the results depend on the processing

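With other settings, the 2 complex I genes called higher became 1 with array weights, without probe sets whose IDs end in _x_at, _s_at or _a_at (35 genes left), with the mean over a gene's probe sets and with the replicate block, 0 at an adjusted p under 0.05 and 5 at an unadjusted p of at most 0.05 with no fold, where 1 was lower. The median difference of 0.13 became 0.19 with array weights, 0.015 without the 3 kinds of probe set and 0.10 without _x_at and _s_at only, a setting chosen after seeing the data. Without the 3 kinds, Ndufa5 (-0.13), Ndufv1 (-0.20) and Ndufs7 (-0.069) changed sign, each read by another probe set. Ndufa12 was then left with a probe set at the floor (-0.000777), as it was without _x_at and _s_at, so its sign there says nothing. Among differences under 0.2 that were never called, Ndufs7 changed sign with array weights (-0.053), Ndufa4l2, at the floor, with renewed quantile normalization (0.000466), Ndufab1 with the mean over probe sets (-0.23) and Ndufs1 with the replicate block (-0.12), and with 1 array left out they ran from -0.054 to 0.22 (Ndufs7), -0.14 to 0.45 (Ndufab1) and -0.12 to 0.13 (Ndufs1). With each array left out in turn, 1 to 8 genes were higher, 0 to 2 lower, and the median ran from 0.027 (without the first null array) to 0.24 (without the second). Without the second null array Ndufa12, Ndufb5, Ndufb7, Ndufb8, Ndufb9, Ndufb10, Ndufs8 and Ndufv2 were higher, without the second WT array Ndufa4 and Ndufb9 were higher and Ndufa9 and Ndufs3 lower, and without the first null array Ndufb1 was lower. The labels do not document that equal replicate numbers pair pools. With the number as a block Ndufb9 was called and Ndufb7 was not (difference 0.67). Ndufb9 was not called without the 3 kinds of probe set (0.58) or with the mean over probe sets (0.40), nor Ndufb7 with array weights (0.57). The causes of these changes were not tested.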

Other observations

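Of the array's probe sets, 10 match a complex I gene together with another gene, and none was called. The one that reads Ndufs6, an accessory subunit of the matrix arm, together with Ndufs6b gave 11.03, 11.05 and 11.20 in WT and 11.46 and 11.32 in null HSCs, a difference of 0.29 (standard error 0.08, limma adjusted p = 0.681) without overlap. The brighter of those shared by Ndufa11 and Ndufa11b differed by 0.23. The brighter of those shared by Ndufb4, Ndufb4b and Ndufb4c read 10.36, 10.30 and 10.38 in WT and 10.43 and 10.38 in null HSCs, a difference of 0.05, whereas the probe set of Ndufb4 alone lay near the floor.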
